A study of Mus musculus with 4 samples.

Results

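The genes described here encode the proteins of the cytosolic ribosome, measured in mouse dendritic cells with and without silencing of NR4A3 and with and without LPS. They were chosen by symbol alone: Rpl or Rps followed by a number, the stalk genes Rplp0 to Rplp2, and Rpsa, leaving out the S6 kinases and symbols marked as pseudogenes. This gave 61 genes of the 19938 that could be named, each taken at its brightest probe set with a single gene symbol. Of the 61, 21 encode proteins of the small (40S) subunit, 30 of the large (60S) subunit and 3 of the acidic stalk, and 7 are paralogs or copies of a canonical gene (Rpl3l, Rpl7l1, Rpl10l, Rpl32l, Rpl39l, Rps4l and Rps27l). RefSeq lists Rps4l as a transcribed pseudogene, although its symbol fits the rule.

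Dendritic cells were grown for 10 days from whole mouse bone marrow with 20 ng/mL GM-CSF, the growth factor that drives myeloid precursors into this lineage, in medium with 10% serum. On day 10 they were electroporated with control siRNA or with siRNA against NR4A3, an orphan nuclear receptor. Cells of all 4 conditions therefore went through electroporation and carried an siRNA. After 24 hours, 100 ng/mL LPS, the bacterial ligand of TLR4, was or was not added, and RNA was taken another 24 hours later. The groups were control siRNA without LPS, control siRNA with LPS, NR4A3 siRNA without LPS and NR4A3 siRNA with LPS, each on 1 Affymetrix array. The labels name the strain as BALB/c in one field and C57BL/6 in another, and do not say whether the arrays came from separate cultures or how many mice gave marrow.

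Each cytosolic ribosome carries 1 set of core proteins, so their genes are usually expressed together, at high levels in growing cells and in step with ribosomal RNA synthesis. Transcription factors of the Myc family raise their output, and mTOR controls how well their messenger RNAs are translated, through a run of pyrimidines at the messenger's first bases (the TOP motif). LPS makes dendritic cells mature: they produce cytokines, present antigen and alter their rates of protein synthesis, which array levels of messenger RNA do not measure.

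Values are log2 intensities, so a difference of 1 is 2-fold. Median values over all probe sets lay between 6.37 and 6.42 on the 4 arrays. Nr4a3, the targeted gene, stood at 11.21 and 11.77 with control siRNA (without and with LPS) and at 7.15 and 9.39 with its own siRNA. Of 10 dendritic cell markers, 9 reached the filter described next on all arrays, and Flt3 stayed under it on every array. In the order control and NR4A3 siRNA, their list medians were 11.79 and 9.12 without LPS and 12.34 and 11.45 with it. Itgax ran from 12.38 to 12.89. Without LPS, silencing differences of these markers ran from -3.53 for Ccr7 to 0.04 for Itgax. Of 9 macrophage markers, 7 passed on all arrays, with list medians of 10.21 and 11.25 without LPS and 9.67 and 9.85 with it. None of the markers measured for mast cells, B, T, NK and erythroid cells did so, while neutrophil markers did in 2 of 9 cases and stromal markers in 4 of 4. These arrays read whole cultures, in which fewer cells of a type and less RNA per cell cannot be told apart. The part of the dendritic and macrophage markers in the results below was not tested.

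Genes counted as measured reached the median of the named genes, 6.66, on at least 1 array. Of the 61 ribosomal protein genes, 56 did, while Rpl12, Rplp2, Rpl3l, Rpl10l and Rpl39l stayed below it on all arrays. Because each condition has a single array, differences between pairs of arrays are given without p-values. The only test came from an additive model over all 4 arrays (limma), which gives each gene an average LPS effect and an average silencing effect. Its residual has 1 degree of freedom, its Benjamini-Hochberg adjustment covered 10592 genes, and its p-values measure only the spread between these arrays.

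With LPS, ribosomal protein genes were lower by a small and shared amount under either siRNA. The median difference over all 61 was -0.24 with control siRNA and -0.32 with NR4A3 siRNA, against -0.02 and 0.02 over all genes past the filter. With control siRNA 51 of the 56 measured genes lay below 0, compared with 51.7% of all genes, and with NR4A3 siRNA 51 of 56, compared with 47.6%. Most differences were modest: 27 of 56 were at least 1.2-fold lower with control siRNA (23.4% of all genes) and 34 of 56 with NR4A3 siRNA (20.2%). At 1.5-fold only 3 were lower in either case, with 9.44% and 6.88% of all genes, and 1 was higher, with 10.2% and 10.3%. At the brightest probe sets on the deposited scale the share past 1.5-fold was therefore under the background, but this depended on the setting. At the dimmest probe sets 5 of 56 were lower with NR4A3 siRNA, beside 6.92% of all genes, a share above the background. With control siRNA 4 of 56 were, beside 9.5%. When quantile normalization was repeated over the named genes, the 1.5-fold counts became 10 lower and 0 higher with control siRNA, beside 10.2% and 9.43% of all genes, and 12 lower and 1 higher with NR4A3 siRNA, beside 8.47% and 8.87%, so that the share of lower genes was then above the background.

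The spread was narrow as well. The SD of the differences over the 56 genes was 0.22 and 0.25, against 0.66 and 0.64 over all genes. In 50 of 56 genes both LPS arrays were below both arrays without LPS, which held for 28.4% of all genes. In 4 (Rps27l, Rpl24, Rpl7l1 and Rpl34) both were above, also 28.4% of all genes, and in Rpl19 and Rps20 the arrays overlapped.

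**Figure D1:**
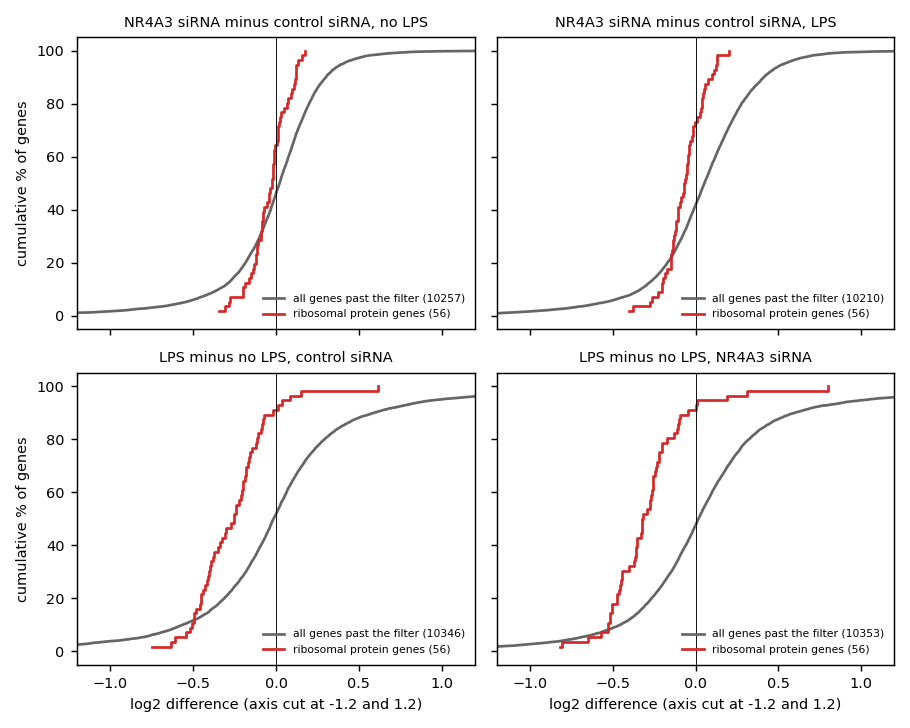
Cumulative share of genes (vertical axis, %) by log2 difference (horizontal axis, shown from -1.2 to 1.2) for silencing without LPS, silencing with LPS, LPS with control siRNA and LPS with NR4A3 siRNA. The red curve holds the 56 ribosomal protein genes past the filter and the grey curve all genes past it: in both lower panels the red curve is steep and lies to the left, reaching 0 with 51 of 56 genes.

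In the additive model (limma) the average LPS effect passed an adjusted p of 0.05 in 22 of the 56 genes, 21 lower and 1 higher, against 14.4% and 15.6% of all genes tested. Those lower were 11 of 21 genes of the small subunit and 10 of 29 of the large subunit, and the one higher was the paralog Rps27l. Neither stalk gene that was tested passed. Before adjustment, 37 of 56 had a p under 0.05. The count depended on the setting: it was 36 after repeated quantile normalization and 36 with a variance prior that follows intensity. The remaining 34 genes did not pass, which does not show that they were unchanged.

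**Figure D2:**
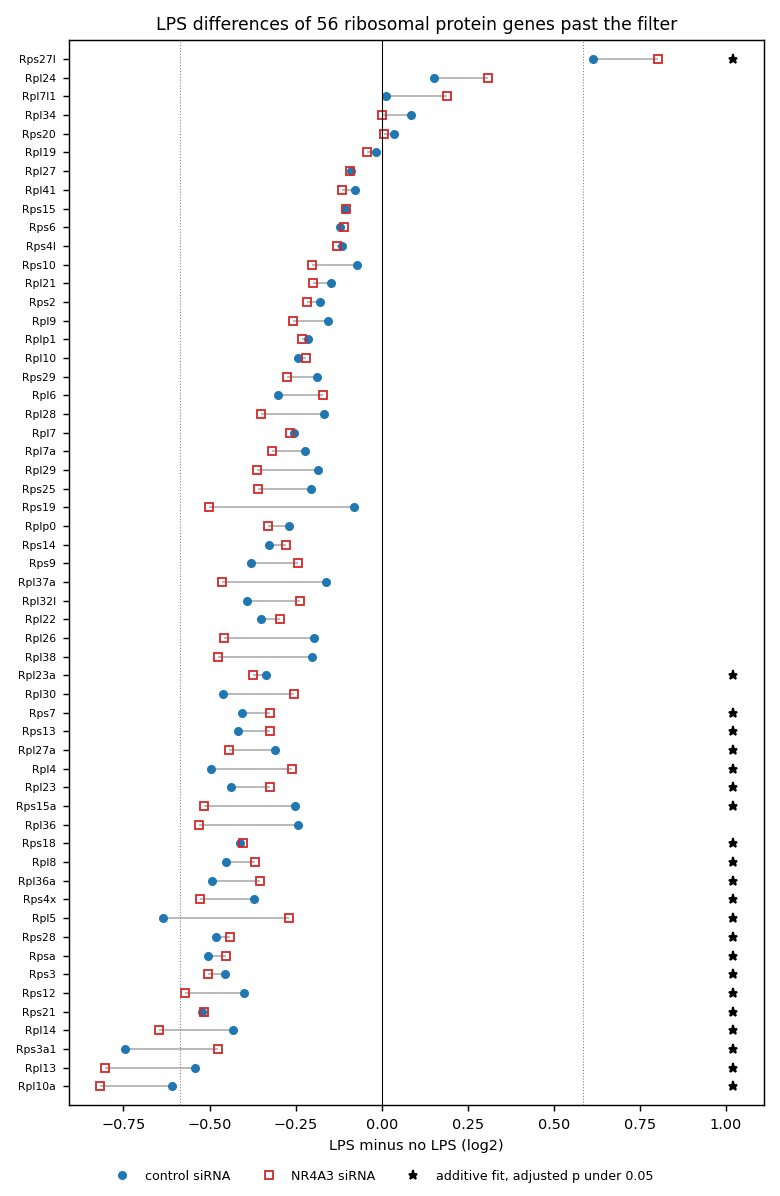
LPS minus no LPS (horizontal axis, log2) for each of the 56 genes past the filter, ordered by the average, with filled circles for control siRNA and open squares for NR4A3 siRNA. Stars mark the 22 genes passing the additive model and dotted lines mark 1.5-fold; nearly all pairs of points lie left of 0, and Rps27l stands apart on the right.

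In the large subunit the largest average fall was that of Rpl10a, which forms the mobile L1 stalk at the exit side of the ribosome. Its log2 value was 13.03 with control siRNA and 13.11 with NR4A3 siRNA without LPS, and 12.42 and 12.30 with LPS. The LPS arrays were clearly apart from the others, 1.53-fold and 1.76-fold lower. The average effect was -0.71 (SE 0.11, limma adjusted p = 0.0053), and its 4 probe sets gave differences from -0.61 to -0.57 and from -0.82 to -0.70.

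Rpl13, a 60S protein, stood at 10.18 and 10.34 without LPS and at 9.64 and 9.53 with it, in the order control and NR4A3 siRNA. The groups did not overlap, with folds of 1.46 and 1.75, and the average was -0.67 (SE 0.11, limma adjusted p = 0.0076). Rpl14 showed the same order of arrays, with 7.67 and 7.79 without LPS and 7.24 and 7.15 with it, an average of -0.54 (limma adjusted p = 0.014) that rested on 1 probe set. Rpl5, which carries 5S ribosomal RNA into the ribosome and can bind the p53 regulator Mdm2, read 12.35 and 12.19 without LPS and 11.72 and 11.92 with it. It was 1.55-fold lower with control siRNA and 1.21-fold lower with NR4A3 siRNA, and its average of -0.45 passed (limma adjusted p = 0.040) but not without a filter on dim genes (0.071). The other 60S genes that fell were Rpl36a, Rpl8, Rpl23, Rpl4, Rpl27a and Rpl23a, with averages from -0.42 to -0.35. Rpl4 lines the tunnel through which the new protein leaves, and read 10.93 and 10.73 without LPS against 10.44 and 10.47 with it; its call was lost without a filter (limma adjusted p = 0.068).

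In the small subunit the median LPS difference was -0.37 with control siRNA and -0.36 with NR4A3 siRNA over 21 genes, compared with -0.24 and -0.31 over the 30 genes of the large subunit. The subunits were not tested against each other. Rps3a1, a protein on the platform side of the 40S subunit, fell most: it read 8.94 and 8.65 without LPS, 8.19 and 8.18 with it. The LPS arrays lay together, while the arrays without LPS differed (-0.29, NR4A3 minus control siRNA), so the folds were 1.68 and 1.39. Its average was -0.61 (SE 0.11, limma adjusted p = 0.011), from 1 probe set.

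Rps21 differed from its unstimulated level by nearly the same amount under either siRNA, at 9.61 and 9.46 without LPS and 9.09 and 8.94 with it (average -0.52, limma adjusted p = 0.012). Rpsa, known also as the laminin receptor precursor, read 12.62 and 12.50 without LPS and 12.11 and 12.04 with it. Rps3, which sits where messenger RNA enters the ribosome and can also bind the NF-kB subunit p65, read 11.46 and 11.63 without LPS with LPS differences of -0.46 and -0.50. In each of these genes both LPS arrays were below both of the others by more than the arrays of one state differed. Rps12, Rps28, Rps4x, Rps18, Rps15a, Rps13 and Rps7 fell too, and over the 11 small subunit genes that passed, averages ran from -0.61 to -0.36. The call of Rps15a was lost with repeated quantile normalization (limma adjusted p = 0.053), cyclic loess (0.068) and no filter on dim genes (0.072), and that of Rps7 at its dimmest probe set (0.051). Rps6, the target of S6 kinase, read 13.64 and 13.62 without LPS and 13.52 and 13.51 with it, and did not pass (average -0.11, limma adjusted p = 0.42).

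The acidic stalk recruits elongation factors to the ribosome. Rplp0, its base, read 12.87 and 12.84 without LPS and 12.60 and 12.51 with it, with an average of -0.30 (limma adjusted p = 0.066). Rplp1 read 13.30 and 13.28 without LPS and 13.09 and 13.05 with it, an average of -0.22 (limma adjusted p = 0.14). In both genes the LPS arrays were the lower ones and the test was missed, but the setting mattered. At their dimmest probe sets both passed (limma adjusted p = 0.034 and 0.032), and with an intensity trend too (0.015 and 0.026). With median centring neither did (0.075 and 0.17). Rplp2 ran from 5.94 to 6.46, under the filter on all arrays, and gives no result.

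Among the 7 paralogs values were mixed, and their median LPS difference was -0.01 with control siRNA and 0.16 with NR4A3 siRNA. This median includes 3 genes under the filter, and 4 paralogs were tested. Rps27l, a close relative of Rps27 whose transcription p53 can raise, was the only one of the 56 genes that rose in the additive model. It read 11.81 and 11.50 without LPS and 12.42 and 12.30 with it, so the LPS arrays were higher by 1.53-fold and 1.74-fold. The average was 0.71 (SE 0.10, limma adjusted p = 0.0051), it rested on 1 probe set, and adjusted p stayed between 0.0015 and 0.014 over the settings tried. With repeated quantile normalization the control siRNA difference was 0.49, under 1.5-fold.

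Rpl7l1, a relative of Rpl7, read 10.76 and 10.69 without LPS and 10.78 and 10.88 with it, where Rpl7 itself read 11.33 and 11.20, then 11.08 and 10.93. Neither passed (limma adjusted p = 0.51 and 0.095), and the sign of their averages differed, 0.10 against -0.26. Rps4l read from 6.96 to 7.20 at its brighter probe set, with differences of -0.12 and -0.13, but its other probe set gave 0.12 and 0.22, so its direction depended on the probe set; Rps4x gave -0.37 and -0.53. Rpl32l read 9.07 and 8.96 without LPS and 8.68 and 8.72 with it (limma adjusted p = 0.066). Rpl10l and Rpl39l, known from male germ cells, and Rpl3l, known from striated muscle, were below the filter on all arrays.

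**Figure D3:**
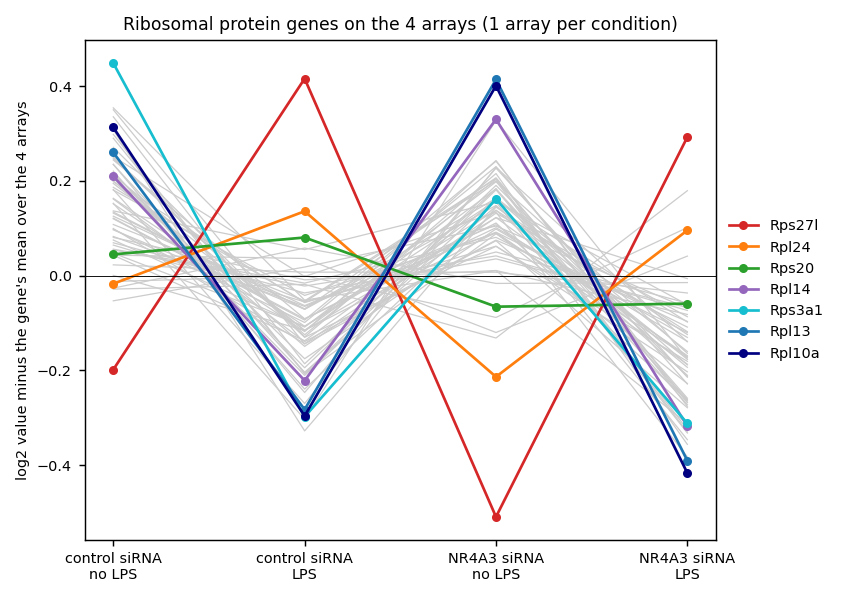
Log2 value of each of the 61 genes, those under the filter included, minus its own mean over the arrays (vertical axis) on the 4 arrays (horizontal axis, 1 array per condition). Grey lines are single genes, and 7 named genes are coloured. Most lines swing down on both LPS arrays together, Rpl10a, Rpl13, Rpl14 and Rps3a1 farthest, while Rps27l and Rpl24 run the other way and Rps20 stays near level.

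A few canonical genes stayed close to their unstimulated level. Rpl19 read 13.23 and 13.22 without LPS and 13.22 and 13.17 with it, Rps20 read 12.95 and 12.84, then 12.99 and 12.85, and Rpl34 read 10.51 and 10.52, then 10.59 and 10.52. Averages of these 3 genes lay between -0.03 and 0.04, limma adjusted p between 0.78 and 0.90, and the signs of their differences changed with the scaling. Rpl24, a 60S protein at the subunit interface, was higher on both LPS arrays at 11.50 and 11.30 without LPS and 11.65 and 11.61 with it. It did not pass (average 0.23, SE 0.10, limma adjusted p = 0.14), and with repeated quantile normalization its control siRNA difference was -0.00119. On the deposited scale its 3 probe sets all lay above 0, from 0.15 to 0.25 with control siRNA and from 0.31 to 0.37 with NR4A3 siRNA. Fau, a ribosomal protein fused to a ubiquitin-like domain and named outside the symbol rule, read 12.75 and 12.69, then 12.81 and 12.63.

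The TOP motif lies at the first bases of the messenger, so the start of each gene was read from the RefSeq promoter table (build GRCm38.p6). The windows run from 25 bases before the annotated start to 20 after it, in the sense of the gene, and capitals mark the longest run of C and T. Shown are the 4 genes with the largest falls, then 3 near 0, then Rpl24 and Rps27l, the 2 with the highest averages; of genes with more than 1 annotated start, the window with the longest run is printed.
Rpl10a, chr17:28328446-28328490, plus strand: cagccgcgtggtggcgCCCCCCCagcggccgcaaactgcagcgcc
Rpl13, chr8:123102325-123102369, plus strand: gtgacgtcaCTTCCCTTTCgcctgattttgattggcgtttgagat
Rps3a1, chr3:86142649-86142693, minus strand: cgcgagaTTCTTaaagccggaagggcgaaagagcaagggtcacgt
Rpl14, chr9:120571492-120571536, plus strand: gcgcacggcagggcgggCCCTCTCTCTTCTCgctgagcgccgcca
Rpl27, chr11:101442220-101442264, plus strand: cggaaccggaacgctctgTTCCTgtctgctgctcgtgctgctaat
Rpl19, chr11:98026899-98026943, plus strand: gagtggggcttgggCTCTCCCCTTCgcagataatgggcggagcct
Rpl34, chr3:130730318-130730362, minus strand: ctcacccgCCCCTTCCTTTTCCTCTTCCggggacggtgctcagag
Rpl24, chr16:55966250-55966294, plus strand: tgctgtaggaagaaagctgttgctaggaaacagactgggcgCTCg
Rps27l, chr9:66946061-66946105, plus strand: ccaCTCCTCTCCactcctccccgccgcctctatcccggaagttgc

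Among the largest falls, Rpl13 held a run of 10 pyrimidines and Rpl14 one of 14, while Rpl10a had 7 and Rps3a1 had 5. Of the genes near 0 or above, Rpl34 had 20, Rpl19 had 11 and Rps27l had 9, while Rpl27 had 5 and Rpl24 had 3. A run of at least 8 within this window was found in 21 of the 49 ribosomal protein genes with a promoter in the table, 42.9%, and in 20.2% of 17492 protein-coding genes. Among members past the filter the median average LPS effect was -0.31 for 19 genes with a run and -0.32 for 25 without, with ranges of -0.67 to 0.71 and -0.71 to 0.23. The run as read here did not separate lower from level genes, and annotated starts can miss the true first base. Runs anywhere in the window were counted. Those of Rpl13 and Rps27l begin at -16 and -22 and end before the annotated start, and that of Rps12 begins 8 bases after it. The split therefore cannot tell whether a TOP motif goes with the LPS difference.

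Other motifs were counted on both strands of the window from 250 bases before to 50 after the start. CGGAAG, the core letters of ETS family sites, was in 33 of 49 genes, beside 23.5% of protein-coding genes. TCGCGA, which reads the same on both strands, was in 13 of 49, beside 3.81%. GGGCGG was in 59.2% against 49.2%, CCAAT in 28.6% against 42.3% and TATAAA in 12.2% against 14.8%. Read on the other strand, CGGAAG is CTTCCG, which can share bases with a pyrimidine run. Among the windows shown, the promoters of Rps3a1, Rpl34, Rpl24 and Rps27l held CGGAAG and those of Rpl10a, Rpl13, Rpl14 and Rpl27 did not; Rpl19 held it at its other annotated start and not at the one printed. These are matches of letters, not sites.

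Probe sets of a gene mostly moved together, with exceptions named below. Of the 61 genes, 39 had several single-symbol probe sets, up to 14, and 182 of their probe sets held distinct values. Within a gene the SD of the LPS difference was 0.05 with control siRNA and 0.06 with NR4A3 siRNA, and between genes 0.18 and 0.21. The genes thus differed from each other by more than their probe sets did. Over all 217 probe sets, 206 and 207 lay below 0, which is 94.9% and 95.4%. All probe sets of a gene shared a sign in 37 and 38 of the 39 genes. Ribosomal protein genes have many near-identical copies across the genome, and probe sets of one symbol may read the same transcripts or copies, so they are not independent and the gene behind a given probe set is uncertain.

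Rpl36 shows this agreement with 9 probe sets, from -0.33 to -0.19 with control siRNA and from -0.64 to -0.42 with NR4A3 siRNA. The 2 ranges do not meet. In Rpsa, by contrast, the brightest of 5 probe sets gave -0.45 with NR4A3 siRNA and the others reached -0.80, so the size depended on the probe set taken. Rpl21 likewise gave -0.15 with control siRNA at its brightest probe set and down to -0.33 at others. The 2 probe sets of Rpl23 lay far apart with control siRNA, at -0.44 for the brightest and -0.94 for the other. With NR4A3 siRNA they gave -0.32 and -0.36, and their silencing differences without LPS were -0.09 and -0.39.

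**Figure D4:**
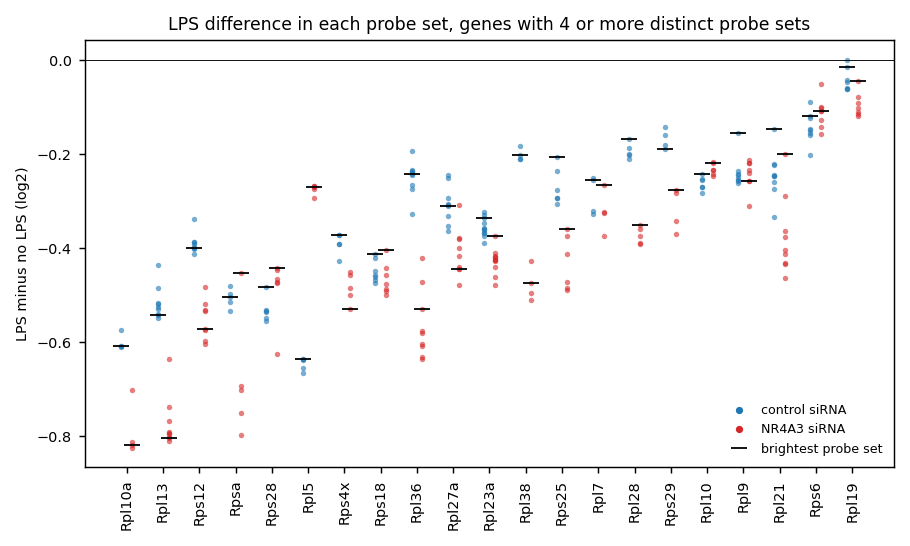
LPS minus no LPS (vertical axis, log2) in each distinct probe set of the 21 genes with at least 4 of them, in blue for control siRNA and red for NR4A3 siRNA; black bars mark the brightest probe set, used for the gene. Points of a gene form tight columns, from near -0.6 and -0.8 in Rpl10a to near 0 in Rpl19.

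A further 17 symbols that fit the rule were found only on probe sets with several gene symbols, and 11 were not analysed here. Over the 232 distinct probe sets with several symbols that include such a name, the median LPS difference was -0.22 with control siRNA and -0.33 with NR4A3 siRNA, and 96.1% and 99.1% were below 0.

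The brightest genes showed the smallest differences. The 8 genes with a mean log2 value of 13 or more had a median average LPS effect of -0.14, against -0.31 for 17 genes from 12 to 13, -0.30 for 16 from 11 to 12, -0.38 for 7 from 9 to 11 and -0.34 for 8 under 9. Across the 56 genes, Pearson's r of mean value and average effect was 0.25 and Spearman's rho 0.39, a description over genes of the same arrays. On each array 4 to 7 of the 61 genes lay within 1 log2 unit of its brightest probe set. Whether bright probe sets understate a change was not tested.

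Silencing of NR4A3 left ribosomal protein genes close to their control values. The median difference over the 61 genes was -0.03 without LPS and -0.07 with LPS, beside 0.02 and 0.05 over all genes past the filter. Below 0 were 36 of 56 without LPS, compared with 46.2% of all genes, and 41 of 56 with LPS, compared with 41.8%. Over the 217 single-symbol probe sets, 55.3% lay below 0 without LPS and 79.3% with LPS (medians -0.01 and -0.11). Over the 232 with several symbols, 52.6% and 89.2% did (medians -0.004 and -0.09). At 1.5-fold, 0 of 56 were lower or higher in either state, against 4.69% lower and 1.62% higher of all genes without LPS and 4.73% and 3.73% with LPS. At 1.2-fold, 4 were lower without LPS (14% of all genes) and 3 with LPS (13.3%), and 0 were higher (12.9% and 21.6%). In the additive model (limma) 0 of 56 passed for the average silencing effect, against 3.58% lower and 1.98% higher of all genes, and 1 had a p under 0.05 before adjustment. Standard errors ran from 0.096 to 0.13 a gene. The gene with a p under 0.05 before adjustment averaged -0.30 and did not pass. Average effects of that size or less could therefore be missed.

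That gene was Rps7, which can bind Mdm2. It read 12.38 and 11.97 with control siRNA, without and with LPS, and 12.04 and 11.71 with NR4A3 siRNA. Its silencing differences were -0.34 and -0.26, and the average of -0.30 did not pass (limma adjusted p = 0.13). The ranges of the siRNA groups overlapped, as they must in a gene whose LPS arrays lie apart. The other genes past 1.2-fold without LPS were Rps27l (-0.31), Rps3a1 (-0.29) and Rpl36a (-0.28), and those with LPS were Rps19 (-0.40), Rps15a (-0.38) and Rpl36 (-0.27). Among the highest, Rps3 stood at 0.18 without LPS and 0.13 with LPS, and Rpl5 at -0.16 and 0.20.

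Both NR4A3 siRNA arrays were below both control arrays in 2 of 56 genes, Rpl19 and Rps20, against 13.4% of all genes, and above in 0, against 19.9%. A gene whose LPS arrays lie apart from the others cannot enter this count. Only Rpl19 and Rps20, whose LPS arrays overlapped, could, so the low share is no measure of silencing. Differences of Rpl19 were only -0.02 and -0.04, and the first was 0.02 as the mean of its probe sets. Across the 56 genes the silencing differences in the 2 states, which share no array, had a Pearson's r of 0.10 and a Spearman's rho of 0.07, while over all genes past the filter they were 0.65 and 0.59. The LPS differences under the 2 siRNAs, which also share no array, had an r of 0.78 and a rho of 0.63 over the 56 genes, and 0.68 and 0.61 without Rps27l, while over all genes past the filter they were 0.89 and 0.80. Both agreements were lower among the 56 genes than over all genes, and the 56 genes also spread less, with an SD of 0.12 for silencing in each state.

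The LPS difference with NR4A3 siRNA minus that with control siRNA had a median of -0.03 over the 61 genes, beside 0.05 over all genes past the filter, and this quantity has no test. Over the 61 genes at their brightest probe sets it ran from -0.42 to 0.37. Rpl23 gave 0.12 at its brightest probe set but 0.58 at its other one. Its median was -0.07 over the 217 single-symbol probe sets (67.7% below 0) and -0.11 over the 232 with several symbols (83.2%), beside 40.9% of all genes. At 1.2-fold, 4 of 56 were lower (9.2% of all genes) and 2 were higher (17.3%). Rps19, a gene mutated in Diamond-Blackfan anaemia, was at the lower end: it read 11.26 and 11.17 with control siRNA, and 11.27 and 10.77 with NR4A3 siRNA. Its 3 other arrays lay together and the array with both treatments was the low one, in 1 probe set. Rpl37a (-0.30), Rpl36 (-0.29) and Rpl38 (-0.27) had the same sign. At the upper end were Rpl5 (0.37), Rps3a1 (0.27), Rpl4 (0.24) and Rpl30 (0.20), whose LPS differences were nearer 0 with NR4A3 siRNA. For Rpl5 the 5 probe sets gave LPS differences from -0.67 to -0.64 with control siRNA and from -0.29 to -0.27 with NR4A3 siRNA.

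Genes that work with ribosomal proteins were counted in the same model (limma), where 14.4% of all genes were lower and 15.6% higher with LPS. The TOP list shares many of its genes with the other lists, so the counts are not of separate genes. Eef1b2 and Eef2 are also listed as elongation factors, Eif4b as an initiation factor and Npm1 as an assembly factor. Among 15 other genes whose messengers carry a TOP motif, 5 fell and 0 rose, with medians of -0.16 and -0.14 for control and NR4A3 siRNA. Those that fell included the elongation factors Eef1b2 (average -0.58, limma adjusted p = 0.0081) and Eef2 (-0.33, 0.049, but 0.054 with median centring) and the initiation factor Eif4b (-0.60, 0.011). Of 35 initiation factors 6 fell and 2 rose, the latter Denr (1.41), which helps recycle small subunits, and Eif4e (0.79), which binds the messenger cap. Of 11 genes listed as elongation and release factors 3 fell and 0 rose. Those were Eef1b2, Eef2 and Eef2k (-0.82, limma adjusted p = 0.0034), the last a kinase of Eef2 and not itself an elongation factor. Of 20 genes of RNA polymerase I and its factors 3 fell and 1 rose. Of 77 mitochondrial ribosomal protein genes 2 fell and 9 rose, with medians of 0.03 and 0.10.

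Among 26 regulators of ribosomal protein output, 6 fell and 4 rose with LPS. Myc read 8.60 and 9.08 without LPS, in the order control and NR4A3 siRNA, with LPS differences of -1.60 and -1.84, an average of -1.72 (SE 0.11, limma adjusted p = 0.00028). Mxd1, which competes with Myc for its partner Max, rose (average 1.04), and its relative Mxd4 fell (-1.16). Deptor, an mTOR inhibitor, fell (-1.39), and so did Sesn1 (-1.28), which restrains mTOR when amino acids are short. Larp1, which binds TOP messengers, rose (0.65, limma adjusted p = 0.0054), and Mtor itself did not pass (0.14, 0.33). Of 17 genes listed around translation arrest in infection, among them Ifit1, Oas2 and Eif2ak2, 14 rose and 1 fell. Not all of them arrest translation themselves. Atf4 (0.42) and Ddit3 (1.55), both among those that rose, are transcription factors of the stress response. With silencing, 3 regulators and 4 genes of this second list fell and 0 of either list rose, against 3.58% lower and 1.98% higher of all genes. The regulators were Sesn3, Mxd1 and Akt1s1, of which the last 2 lost the call without a filter (limma adjusted p = 0.054 and 0.067). Akt1s1 lost it with cyclic loess too (limma adjusted p = 0.054), and with median centring 1 regulator rose. The 4 genes of the second list became 2 with repeated quantile normalization and 2 with cyclic loess.

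**Figure D5:**
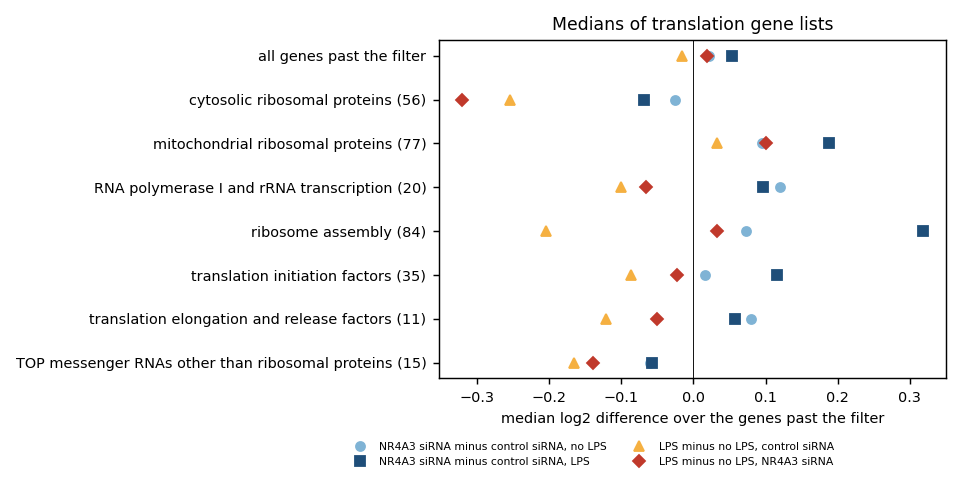
Median log2 difference (horizontal axis) of each list of translation genes past the filter (vertical axis, number of genes in brackets), with one symbol for each of the 4 comparisons. Cytosolic ribosomal proteins have the lowest LPS medians of the lists drawn (triangle and diamond), and the ribosome assembly list the highest silencing median with LPS (square).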

How the data were processed

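Total RNA of 4 conditions was read on 1 Affymetrix Mouse Gene 1.0 ST array each. Per the labels, the deposited log2 values come from RMA and were quantile-normalized. Affymetrix Expression Console 1.1 is named in the submitters' processing notes and GeneSpring in the design text. The genome build is not given in the sources used here. A shift shared by most genes would not be visible after such scaling.

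Of 28856 probe sets, 21789 had a single symbol in the platform annotation, which gave 19938 genes; 1621 with several symbols and 5446 without one were left out. All 61 gene identifiers were found in RefSeq. Of several probe sets the one with the highest mean was used.

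Differences were counted where the brighter array of a pair reached 6.66. The additive model was fitted with limma 3.58.1 in R 4.3.3 (prior of 4.76 degrees of freedom) and tested on simulated data, where more of its calls were false than the nominal share. Precision is limited by the number of arrays. Alternatives were median centring, repeated quantile normalization, cyclic loess, other probe sets per gene, leaving out paralogs, other folds, no filter or one at 8.67, an intensity trend and robust variances. Probe sets with several symbols were added after the data were seen.

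Named were the 5 highest and 5 lowest members of each comparison, members past 1.5-fold or the test, the 5 largest differences of LPS effects per direction, stalk genes, paralogs and up to 4 genes of each list. Rps6, Rpl27, Rpl23a, Mtor, Larp1, Eif2ak2 and the windows shown were picked after their values were seen. Members, lists and tests were chosen with earlier results of these data known.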

Additional observations from a re-analysis of the deposited data

How the results depend on the processing

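No median or count over the ribosomal protein genes changed direction, but single genes near 0 did: from 52 to 59 of the 61 lay below 0 with LPS and control siRNA, and from 53 to 56 with NR4A3 siRNA. Repeated quantile normalization moved the median LPS difference to -0.34 with control siRNA and -0.43 with NR4A3 siRNA, the 1.5-fold counts to 10 and 13, and the number passing the additive model from 22 to 36, of which 21 were among the 22. An intensity trend also gave 36; the other settings gave 19 to 28. Cyclic loess moved the median silencing difference with LPS to -0.11. At 1.2-fold the counts were 4 and 3 for silencing without and with LPS, and 28 and 36 for LPS with control and NR4A3 siRNA; at 2-fold both LPS counts were 0. The cause of these shifts was not tested, other than the threshold itself. The average silencing effect passed in 0 genes under all 9 alternatives. The number of the 61 genes lower with LPS under both siRNAs was 53, and 51 to 55 under the alternatives. No paired analysis was possible because the labels number no replicates; the additive model already compares LPS within each siRNA. Settings for the other lists were added after the data were seen: the assembly genes' LPS median with NR4A3 siRNA, 0.03, became -0.03 with repeated quantile normalization.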

Other observations

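Ribosome assembly factors process ribosomal RNA and fit the proteins onto it. Of 84 such genes past the filter, 16 fell and 5 rose with LPS in the additive model (limma), against 14.4% and 15.6% of all genes tested. Their median LPS difference was -0.20 with control siRNA and 0.03 with NR4A3 siRNA, and the median difference of the LPS effects was 0.26, beside 0.05 over all genes past the filter and -0.03 for the ribosomal protein genes. That quantity has no test. With LPS, 11 of the 84 were at least 1.5-fold higher with NR4A3 siRNA than with control siRNA, against 3.73% of all genes, and 1 was lower, against 4.73%. Wdr12, part of the complex that matures the large subunit, read 7.74 with control siRNA, 6.62 with control siRNA and LPS, 7.61 with NR4A3 siRNA and 7.28 with both. Utp14a, of the small subunit processome, read 7.68, 6.64, 7.78 and 7.39 in the same order. In both genes the array with control siRNA and LPS was the low one. Fbl, the methyltransferase of box C/D particles, read 9.41, 8.70, 9.48 and 9.21, and fell on average (-0.49, limma adjusted p = 0.042), but not without a filter (0.080).

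For the average silencing effect, 3 assembly genes passed as higher, Dkc1 (0.64, limma adjusted p = 0.028), Noc3l (0.56, 0.045) and Mrto4 (0.55, 0.038), and Gtpbp4 as lower (-0.71, 0.022), against 1.98% and 3.58% of all genes. Without a filter the first 3 lost their calls (limma adjusted p = 0.053, 0.084 and 0.068). With cyclic loess only 1 assembly gene passed as higher, and Mrto4 did not (limma adjusted p = 0.061). With repeated quantile normalization 2 passed as higher. Dkc1, the pseudouridine synthase of box H/ACA particles, read 6.66 and 6.20 with control siRNA and 7.30 and 6.83 with NR4A3 siRNA, without and with LPS. Its control siRNA arrays lay at or under the filter of 6.66, so it passed the filter clearly only through the group called higher. Rcl1, which acts in early processing of the small subunit's RNA, and Sbds, which acts late on the large subunit, rose with LPS by 1.65 and 0.90 on average, and Npm1 fell by 0.58.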
